A study of Mus musculus with 21 samples.

Results

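Doxorubicin and ionizing radiation both damage DNA, and here their effects were compared directly in 1 fraction of sorted mouse small-intestine cells. The members are 4 of the 21 samples of the series, chosen by their titles: 2 arrays of CD24lo cells from doxorubicin-treated mice and 2 arrays of CD24lo cells from mice irradiated with 10 Gy. Every sorted cell was positive for the reporter TdTomato, which fluoresces red and by the labels stands for Mist1 expression, and flow cytometry divided them by the surface protein CD24. The 2 untreated CD24lo arrays served as a reference level, and the same treatments in CD24hi cells were used to test whether a difference belonged to 1 fraction. Arrays of both fractions from the Lgr5-ablated (titled DT) and NICD conditions were not compared. They entered the filter on low signals, the choice of probe sets and the fit's estimate of the spread. The labels give no dose of doxorubicin, no time between treatment and sorting, no age, no strain and no driver of the reporter. They do not say that replicates came from separate animals, so p-values measure only the spread between these samples, which may be technical. Doses and times cannot be matched between the treatments, and the values below are those of these groups side by side.

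Mist1, the protein of Bhlha15, is a transcription factor of secretory cells, which in the intestine include Paneth, goblet and enteroendocrine cells. Radiation breaks DNA directly and through reactive oxygen, whereas doxorubicin inserts between DNA bases and traps topoisomerase II on broken ends. Both lesions stabilize p53, which raises genes of cell cycle arrest and cell death. Epithelial cells can also answer interferons, with type I interferons raising antiviral genes and interferon gamma raising antigen presentation through the class II transactivator Ciita.

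Signals were compared as log2(signal + 16) with limma in a fit to the 20 sorted arrays, 2 per group, and p-values were adjusted by the Benjamini-Hochberg method over 11853 genes. Differences are doxorubicin minus irradiated on that log2 scale, ± SE of the fit with n = 2 arrays per group, and folds of dim genes are understated by the added 16. "Higher" or "passed" below means an adjusted p under 0.05. Array medians of the 20 sorted arrays ran from 101 to 158 in signal, and precision is limited by having 2 arrays a group. All 12 pan-epithelial markers were above the array median on the 6 CD24lo arrays of these 3 groups, with summed signals of 79677 to 96078. Cd24a, the sorting marker, lay at 13.07 to 13.55 on those arrays and at 14.16 to 14.40 on the 6 CD24hi arrays of the same conditions. In CD24lo cells it was at 13.07 and 13.12 after doxorubicin and at 13.55 and 13.44 after irradiation. That difference was -0.40 ± 0.18 (limma, adjusted p = 0.209). Other kept probe sets of Cd24a gave -0.50 and -0.87, with adjusted p of 0.168 and 0.0242 in limma over all kept probe sets. In bulk cells such as these, fewer cells of a type and less RNA per cell cannot be told apart.

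After doxorubicin 157 genes were higher and 231 lower than after irradiation, which is 388 of 11853 or 3.27% (1.32% higher and 1.95% lower). Doxorubicin and irradiated arrays did not overlap for any of the 388, so leaving out 1 array could not change the sign of any of them. The share of all genes without overlap was not counted. Genes short of the threshold, such as Mki67 and Lct, did not overlap either. Centring each array on its 75th percentile gave 181 higher and 172 lower, so the balance between directions depends on the scaling. The median difference of all genes was -0.05, and 2413 genes (20.4%) had an unadjusted p under 0.05. A fit to the 4 arrays alone, with 2 residual degrees of freedom, called 1707 genes. The calls rest on all 4 arrays: 36 genes passed without irradiated replicate 1, 83 without irradiated replicate 2, 39 without doxorubicin replicate 1 and 39 without doxorubicin replicate 2. Without each of the 4 in turn, 20 genes kept their call, 11 higher and 9 lower, and all 388 kept their sign. Among those 20 were the class II genes H2-Aa, H2-Ab1, H2-Eb1, H2-DMa and Cd74, and Cubn, Gimap4, Mmp7, Nupr1, Defa39, Pglyrp1, Cfi and Cd14. Every other gene named below as passed in this direct comparison lost its call without at least 1 of the 4 arrays.

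MHC class II genes had the highest median of the 43 gene lists examined. These genes encode the complex that shows peptides to CD4 T cells, and all 6 tested members were higher after doxorubicin (1.32% of all genes). Their median difference was 2.75 against -0.05 for all genes. Their promoters carry conserved elements through which Ciita acts, among them the Y box. RefSeq promoters (GRCm38.p6) running from 250 bases before the start to 50 after it were matched for 3 of the 6, H2-Aa, H2-Eb1 and H2-DMa. The letters CTGATTGG, searched on both strands, were found in H2-Aa and H2-Eb1, and in 6.54% of the 9623 tested genes with a promoter in the table (4.1% of all 32851 promoters). Windows of 100 bases around the matches are shown because these 2 genes had the smallest adjusted p of the comparison, with the matched letters in capitals. The H2-Aa window is chr17:34287821-34287920 on the minus strand, with the match 44 to 51 bases before the start. The H2-Eb1 window is chr17:34305759-34305858 on the plus strand, with the match 55 to 62 bases before the start.
H2-Aa: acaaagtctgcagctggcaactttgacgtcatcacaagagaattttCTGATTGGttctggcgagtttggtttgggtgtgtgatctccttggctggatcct
H2-Eb1: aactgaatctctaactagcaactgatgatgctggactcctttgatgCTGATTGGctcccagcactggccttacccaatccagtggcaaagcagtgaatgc

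H2-Aa, the alpha chain of the I-A molecule, had levels of 11.95 and 12.01 on the doxorubicin arrays, 8.19 and 8.22 on the irradiated arrays and 9.41 and 10.54 on the untreated arrays. Doxorubicin arrays were the highest and irradiated arrays the lowest, with no overlap between any of the 3 groups. The direct difference was 3.77 ± 0.33, a 13.7-fold change (limma, adjusted p = 1.89e-05). H2-Eb1, the beta chain of the I-E molecule, lay at 11.51 and 11.56 after doxorubicin, 8.62 and 8.65 after irradiation and 10.12 and 10.58 untreated, a direct difference of 2.90 ± 0.23 (limma, adjusted p = 6.12e-06). It had the same order of groups. Cd74, the invariant chain that escorts class II molecules, was at 11.51 and 11.72 after doxorubicin and at 8.44 and 8.81 after irradiation, 2.99 ± 0.30 apart. H2-DMa, part of the peptide exchange factor, differed by 2.59 ± 0.26 and H2-Ab1, the beta chain of I-A, by 1.95 ± 0.24. Ciita itself, the transactivator, was dimmer, with 8.56 and 8.07 after doxorubicin against 6.60 and 7.14 after irradiation. Its difference of 1.44 ± 0.33 passed (limma, adjusted p = 0.0281). The other 5 members kept their calls without any 1 of the 4 arrays, and Ciita lost its call without each of them.

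Set against untreated cells, the class II difference had a part on each side. After irradiation 5 of the 6 members were lower than untreated, with a median of -1.74 (background 4.02% of genes called, 2.45% lower). After doxorubicin 3 of the 6 were higher than untreated, with a median of 0.99 (background 14.7% called, 5.47% higher). Cd74 was 2.19 lower after irradiation than untreated (a difference of -2.19, limma, adjusted p = 0.000669). The difference of Cd74 between doxorubicin and untreated was 0.80 with an adjusted p of 0.0815 from limma. Ciita showed another order, 0.05 from untreated after irradiation (limma, adjusted p = 0.953) and 1.49 above it after doxorubicin (limma, adjusted p = 0.00862). These 2 comparisons share the untreated arrays, and each is given only for its own values.

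**Figure D1:**
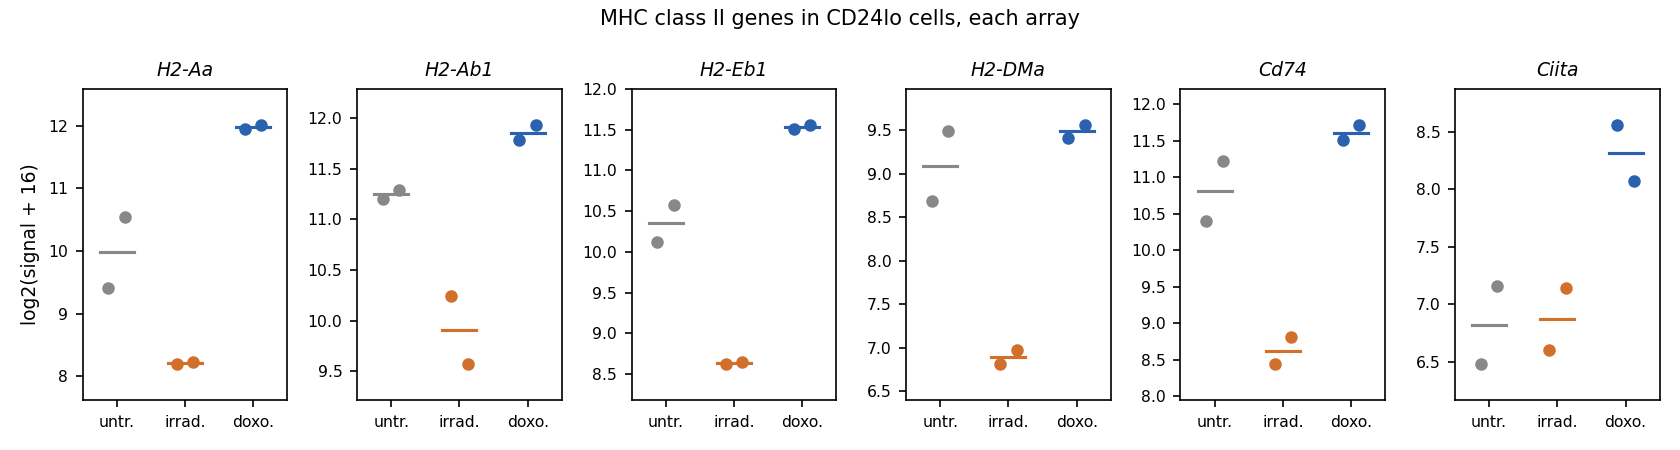
Levels of 6 MHC class II genes on the log2(signal + 16) scale in CD24lo cells. Points are single arrays, 2 per group, and lines are group means; each panel has its own axis, which does not start at 0. The doxorubicin arrays lie above the irradiated ones in all 6 panels, and the irradiated arrays lie below the untreated ones in all panels but Ciita.

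Other genes of the interferon gamma response gave 1 call, where 3.27% of all genes were called. Of 18 tested members of that list 1 was higher and 0 lower after doxorubicin, with a median of -0.20 (limma; the one was Psmb9, an immunoproteasome subunit, at 0.88 ± 0.20). Psmb9 read 11.41 and 11.52 after doxorubicin, 10.76 and 10.42 after irradiation and 12.08 and 11.90 untreated. It was thus lowest on the irradiated arrays, which did not overlap the others. It lost its call without any 1 of the 4 arrays, with adjusted p up to 0.179.

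Several genes of lymphocytes were also higher after doxorubicin. Of 11 tested markers of T cells and intraepithelial lymphocytes 5 were higher and 0 lower, with a median of 1.94 (background 1.32% higher). Ptprc, the leukocyte surface phosphatase CD45, was at 9.64 and 9.37 after doxorubicin, 5.16 and 6.77 after irradiation and 6.07 and 8.92 untreated. The direct difference was 3.53 ± 0.70 (limma, adjusted p = 0.0131), and the untreated arrays spread widely. Another, dimmer probe set of Ptprc gave 0.28 with an adjusted p of 0.884 in limma over all kept probe sets. Cd3e, a chain of the T cell receptor complex, was at 7.97 and 8.33 after doxorubicin and at 5.15 and 5.61 after irradiation, a difference of 2.77 ± 0.62. Gzma, a granzyme of cytotoxic lymphocytes, read 10.36 and 10.39 against 7.19 and 8.26, and Cd3g and the receptor gene Klrd1 also passed. Cd3e, Cd3g and Klrd1 were above the array median on both doxorubicin arrays and on no irradiated or untreated CD24lo array. Genes were kept for testing if above it on at least 2 of the 20 arrays, so they may have entered through the group where they were high. The count of 5 and the median of 1.94 depend on that filter. Gimap4, a GTPase of lymphocytes that is not in the list, differed by 3.09 ± 0.47. It too was above the array median on both doxorubicin arrays and on no irradiated or untreated CD24lo array. All 5 list members lost their calls without doxorubicin replicate 1, without doxorubicin replicate 2 or without irradiated replicate 1, and 1 passed without irradiated replicate 2; with a pseudocount of 1 in place of 16, 1 passed, with 64, 8 passed, and with a stricter filter on low signals 2 passed.

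The summed signal of the 15 lymphocyte markers on the array was 5038 and 4870 after doxorubicin, 709 and 1314 after irradiation and 604 and 1592 untreated. On the 4 arrays compared, 5 of the 15 were below the array median throughout, among them Cd3d and Cd4. Class II genes are also made by antigen-presenting cells. Of 16 myeloid markers 12 were below the array median on all 4 arrays, including Csf1r, Adgre1, Itgax, C1qa, C1qb and C1qc, and the list's summed signal was lower after doxorubicin, 3862 and 2558, than after irradiation, 7346 and 8989. Most of that sum is Lyz2, which Paneth cells also make and which was lower after doxorubicin. Of 7 tested myeloid markers 2 were lower, Lyz2 and Cd14, and 0 higher (background 1.95% lower). Cd14 was dim, at 4.75 and 4.66 after doxorubicin against 7.06 and 7.29 after irradiation. The myeloid gene Fcer1g moved the other way, at 7.74 and 7.75 after doxorubicin against 5.79 and 6.34, with an adjusted p of 0.1 in limma, as did the dim C1qb, at 6.48 and 6.04 against 5.07 and 4.75. Of 9 markers of B and plasma cells 5 were below the median on all 4 arrays, among them the B cell receptor genes Cd79a and Cd79b. The sum of the 9 was 10967 and 9608 after doxorubicin against 7049 and 4304 after irradiation. Most of it is Igha and Jchain, whose direct differences had adjusted p of 0.282 and 0.32 in limma. The part of lymphocytes in the class II difference was not tested.

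**Figure D2:**
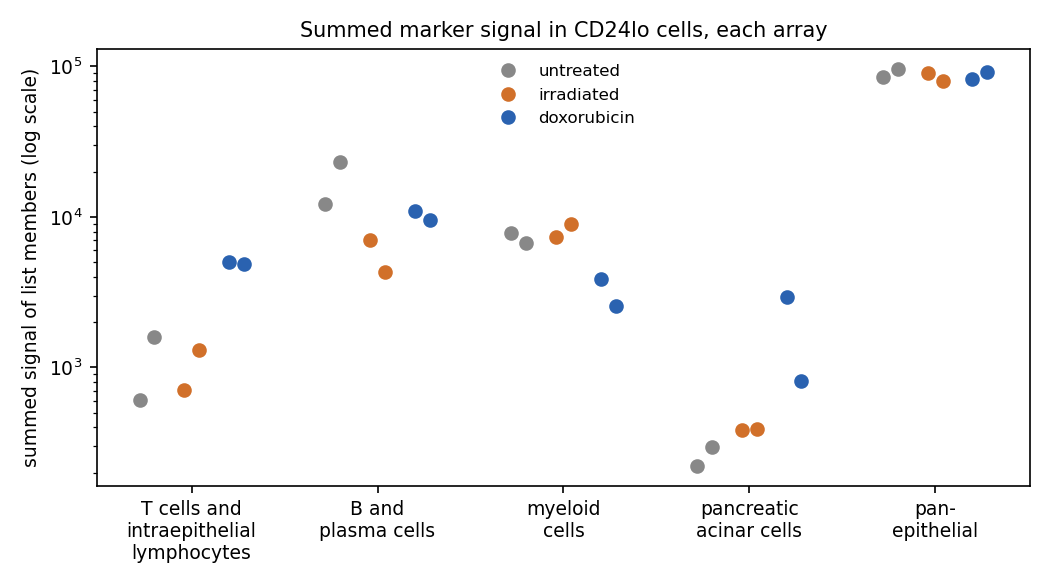
Summed signal of the markers of 5 cell types on each CD24lo array, on a log axis. Points are single arrays, grey untreated, orange irradiated, blue doxorubicin; lymphocyte markers sum to 5038 and 4870 after doxorubicin and to 709 and 1314 after irradiation, and pan-epithelial markers stay between 79677 and 96078.

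Some genes of the absorptive enterocyte were higher after doxorubicin. Of 16 tested genes of enterocyte digestion 4 were higher and 0 lower, with a median of 1.32, and all 16 differences were above 0. Of all genes 1.32% were higher and 44.5% had a difference above 0. Cubn, the receptor cubilin that takes up proteins and vitamin B12 complexes, was at 11.18 and 11.39 after doxorubicin, 8.11 and 7.15 after irradiation and 6.16 and 7.09 untreated. This 12.6-fold difference of 3.66 ± 0.42 (limma, adjusted p = 0.000327) was the largest of the list. Slc15a1, the peptide transporter of the brush border, lay at 11.40 and 11.19 against 8.93 and 9.51. The peptidases Dpp4 and Naaladl1 each differed by 1.36. Lct, the lactase gene, read 13.20 and 13.23 after doxorubicin and 11.54 and 11.49 after irradiation, and its adjusted p was 0.0601 in limma. Cubn alone passed without irradiated replicate 1, irradiated replicate 2, doxorubicin replicate 1 or doxorubicin replicate 2 in turn.

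Some transporters outside that list were also higher after doxorubicin. Otop3, a proton channel, was at 10.14 and 10.16 after doxorubicin and at 6.77 and 5 after irradiation, a difference of 4.27 ± 0.95 (limma, adjusted p = 0.0241). It was above the array median on both doxorubicin arrays and on no irradiated or untreated CD24lo array. Otop3 may thus have passed the filter through the group where it was high. Slc5a4a, of the sodium-glucose transporter family, lay at 11.62 and 11.76 against 6.97 and 7.99, 4.21 ± 0.74 apart. Slc40a1, the iron exporter ferroportin, read 12.24 and 12.35 against 9.40 and 8.37. In these 3 genes the untreated arrays, between 4.91 and 9.51, lay with the irradiated ones. Car4, a membrane carbonic anhydrase, was different: it read 13.15 and 13.34 after doxorubicin, 12.99 and 12.40 untreated, and 9.69 and 10.64 after irradiation. Its value against untreated was -2.53 after irradiation (limma, adjusted p = 0.0426) and 0.55 after doxorubicin (limma, adjusted p = 0.611). Sgk1, a kinase that raises sodium transport, was 2.01 ± 0.33 higher after doxorubicin.

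Fat handling and mitochondrial genes had medians above 0 with few calls, where 1.32% of all genes were higher and 44.5% had a difference above 0. Of 19 genes of enterocyte fat handling 1 was higher, the fatty acid translocase Cd36, and 0 lower, with a median of 0.89. Cd36 was at 9.85 on both doxorubicin arrays and at 6.85 and 7.27 after irradiation. Of 23 respiratory chain genes 2 were higher, the succinate dehydrogenase subunits Sdha (0.59 ± 0.15) and Sdhb (0.89 ± 0.21), and all 23 differences lay between 0.12 and 0.89. Of 17 genes of xenobiotic metabolism 0 passed in limma and 9 had an unadjusted p under 0.05 (20.4% of all genes), with a median of 1 and all 17 differences above 0. Against untreated cells that list had 12 higher after doxorubicin and 1 after irradiation (backgrounds 5.47% and 1.58%). Cyp3a11, a drug-oxidizing cytochrome, read 13.05 and 12.82 after doxorubicin, 11.25 and 12.24 after irradiation and 9.84 and 8.47 untreated. Cd36, Sdha and Sdhb lost their calls without any 1 of the 4 arrays.

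**Figure D3:**
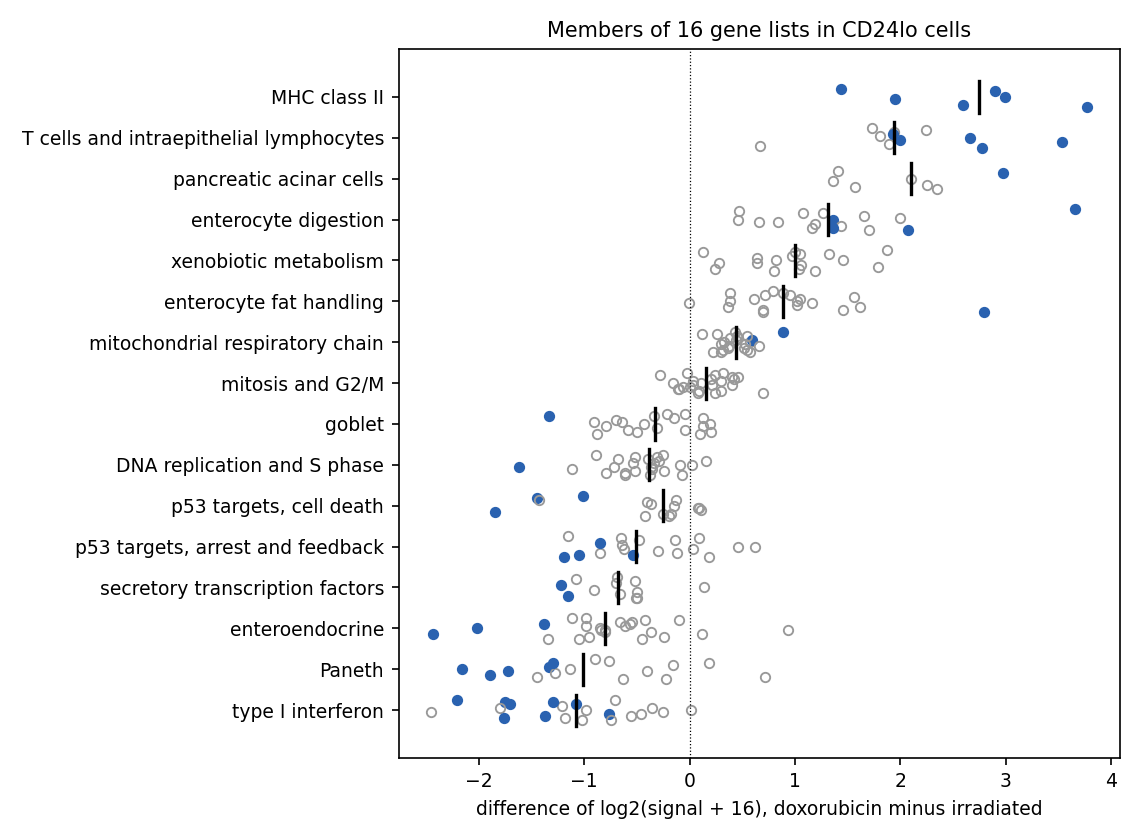
Differences between doxorubicin and irradiated CD24lo cells, on the log2(signal + 16) scale, for the tested members of 16 gene lists. Each circle is a gene, filled where it passed the test, and each black bar is the median of a list, from 2.75 for MHC class II to -1.08 for type I interferon genes.

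Of 7 tested markers of pancreatic acinar cells, which make digestive enzymes, 1 was higher in CD24lo cells after doxorubicin, with a median of 2.10 (background 1.32% higher). Cela2a, an elastase, read 8.61 and 7.24 after doxorubicin, 4.67 and 5.25 after irradiation and 4.49 and 4.77 untreated. Cpb1, a pancreatic carboxypeptidase outside the list, read 9.02 and 7.23 against 5.18 and 4.34. The summed signal of the 7 markers was 2941 and 818 on the doxorubicin arrays, so the 2 replicates differed widely, and 385 and 389 on the irradiated ones. In CD24hi cells the order turned: Cpb1 was at 9.56 and 8.35 after irradiation and at 5.6 and 5.92 after doxorubicin, and the difference between fractions was 6.56 ± 0.90 (limma, adjusted p = 0.00341). Cela2a lost its call without doxorubicin replicate 1 or either irradiated array, and Cpb1 lost its call with 1 array left out at an adjusted p of up to 0.158. Gkn1, a stomach gene, passed with 8.69 on doxorubicin replicate 2 but 5.75 on replicate 1, and another of its probe sets gave 0.66 with an adjusted p of 0.688 in limma over all kept probe sets.

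Several type I interferon genes were lower after doxorubicin. Of 21 tested members 8 were lower and 0 higher, with a median of -1.08 (background 1.95% lower). The products of these genes degrade or sense viral RNA or carry the interferon signal, and many of their promoters hold an interferon-stimulated response element. Promoters were matched for 15 of the 21. The letters GAAA, any 2 bases and GAAA again, searched on both strands with overlapping matches counted, were found in 9 of the 15, and in 3.55% of the 9623 tested genes with a promoter (3.44% of all promoters in the table). Among the 6 matched genes that passed, 5 held the letters. Windows of 100 bases are shown for 4 of those 5, with the matched letters in capitals. They are chr5:120907488-120907587 on the minus strand for Oas1a, chr12:26456518-26456617 on the minus strand for Rsad2, chr19:34640749-34640848 on the plus strand for Ifit1, and chr10:128270248-128270347 on the plus strand for Stat2. In Oas1a 2 overlapping matches lie 5 to 20 bases before the start on the gene's strand. In the other 3 the matches are on the opposite strand, so the capitals show the reverse complement.
Oas1a: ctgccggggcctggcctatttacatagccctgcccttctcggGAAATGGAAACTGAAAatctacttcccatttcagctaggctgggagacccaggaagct
Rsad2: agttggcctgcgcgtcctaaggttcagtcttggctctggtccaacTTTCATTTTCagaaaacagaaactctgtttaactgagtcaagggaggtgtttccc
Ifit1: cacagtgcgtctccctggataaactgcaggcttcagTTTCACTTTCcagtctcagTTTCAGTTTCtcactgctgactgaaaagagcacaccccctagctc
Stat2: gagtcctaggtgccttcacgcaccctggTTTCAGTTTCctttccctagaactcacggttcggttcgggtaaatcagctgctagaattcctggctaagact

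Oas1a, an oligoadenylate synthetase that senses double-stranded RNA, was at 9.90 and 10.00 after doxorubicin, 11.56 and 11.07 after irradiation and 11.89 and 11.84 untreated. Its direct difference was -1.37 ± 0.21 (limma, adjusted p = 0.00344). Rsad2, the antiviral enzyme viperin, read 8.32 and 8.29 after doxorubicin against 10.87 and 9.24 after irradiation. The irradiated arrays lay apart from each other in this gene, replicate 1 above replicate 2, as they did in Ifit1 (11.44 and 9.55) and Usp18 (9.90 and 8.88). Usp18, a protease that removes ISG15, was at 7.61 and 7.65 after doxorubicin, a difference of -1.76 ± 0.35. Oas3 differed by -2.21 ± 0.55, Stat2, which carries the signal to the nucleus, by -1.08 ± 0.21, and Rtp4 and Oasl1 also passed. Untreated levels of Oas1a, Usp18, Rsad2 and Stat2 were close to the irradiated ones or above them, and 0 of the 21 members passed between irradiated and untreated cells in limma (5 at an unadjusted p under 0.05, against 21.0% of all genes). Against untreated, 13 of 21 were lower after doxorubicin (background 9.27% lower). Without irradiated replicate 1 or without doxorubicin replicate 1, 0 of 21 passed; without doxorubicin replicate 2, 1 passed, and without irradiated replicate 2, 6 passed. With no filter on low signals, or without the variance trend, 4 passed. The test of a difference between fractions passed for 0 of the 21 in limma, where 0.0844% of all genes passed as higher and 0.911% as lower. At an unadjusted p under 0.05 there were 5 of the 21 and 8.89% of all genes.

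Some targets of p53 were lower after doxorubicin than after irradiation. Of 18 tested targets in arrest and feedback 4 were lower after doxorubicin and 0 higher, with a median of -0.51. Of 15 in cell death 3 were lower and 0 higher, with a median of -0.25 (background 1.95% lower). Cdkn1a, the cell cycle inhibitor p21, was at 12.41 and 12.63 after doxorubicin, 13.95 and 13.46 after irradiation and 12.08 and 12.48 untreated. The direct difference was -1.19 ± 0.29, a 2.27-fold lower level (limma, adjusted p = 0.0330). The doxorubicin arrays overlapped the untreated ones, and the irradiated arrays did not. Phlda3, which restrains Akt, lay at 8.52 and 8.50 after doxorubicin and at 10.43 and 10.29 after irradiation, both far above 6.02 and 5.2 untreated. Trp53inp1, a p53 cofactor, read 11.40 and 11.23 against 12.92 and 12.61. Zmat3 (-0.85 ± 0.20), Aen, an exonuclease (-1.01 ± 0.23), Polk, a repair polymerase (-1.05 ± 0.20), and Btg2 (-0.54 ± 0.14) were also lower.

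For Ccng1 and Mdm2, also p53 targets, the call between the treatments depended on the probe set. Through its probe set of highest mean, Ccng1, a cyclin G, was 1.61 above untreated after irradiation (limma, adjusted p = 0.00054) and 1.14 above it after doxorubicin (limma, adjusted p = 0.00365), and its direct difference was -0.48 ± 0.21 (limma, adjusted p = 0.222). Another probe set of Ccng1 gave -1.25 with an adjusted p of 0.0116 in limma over all kept probe sets. Mdm2, the ligase that degrades p53, read 11.30 and 11.42 after doxorubicin, 12.23 and 11.74 after irradiation and 10.44 and 11.02 untreated. Its direct difference of -0.62 ± 0.30 had an adjusted p of 0.245 in limma. Its other kept probe sets gave -1.02 and -0.78, with adjusted p of 0.0289 and 0.0458 in limma over all kept probe sets. Against untreated, irradiation gave 7 of 18 arrest targets and 4 of 15 death targets higher, and doxorubicin gave 4 and 3 (backgrounds 1.58% and 5.47% higher). Mdm4, the partner of Mdm2, was singled out after its values were seen, at 10.16 and 10.38 after doxorubicin against 11.20 and 11.13 after irradiation and 10.09 and 9.89 untreated. The noncoding RNA Pvt1 was among the 15 lower genes of largest difference, at 8.46 and 8.60 after doxorubicin and 10.50 and 10.60 after irradiation, with 7.41 and 7.93 untreated. Without any 1 of the 4 arrays, 0 genes of either p53 list passed in the direct comparison by limma (with all 4 arrays, 10 of 18 and 4 of 15 had an unadjusted p under 0.05, against 20.4% of all genes). Without the variance trend 2 of the 18 arrest targets passed.

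Several Paneth cell genes were lower after doxorubicin. Paneth cells secrete antimicrobial proteins at the crypt base, and of 16 tested members 5 were lower and 0 higher, with a median of -1.01 (background 1.95% lower). Mmp7, the protease that activates alpha-defensins, was at 11.07 and 11.12 after doxorubicin, 13.29 and 13.20 after irradiation and 13.31 and 13.66 untreated. The difference of -2.16 ± 0.25 (limma, adjusted p = 0.000327) is a 4.45-fold lower level, and irradiated and untreated arrays lay together. Nupr1, a stress-responsive chromatin protein, read 8.49 and 9.46 against 10.93 and 10.80. Lyz2, a lysozyme shared with myeloid cells, differed by -1.72 ± 0.28, Habp2 by -1.33 ± 0.34 and Reg3g, an antibacterial lectin, by -1.30 ± 0.28. In a separate list of the Reg family and antimicrobial genes, Reg3g alone of 8 tested members passed. The median of that list was 0.41, with 5 differences above 0 and 3 below. Lyz1, the Paneth lysozyme, overlapped between the treatments, at 14.10 and 14.22 after doxorubicin and 14.56 and 14.21 after irradiation. Outside the list, the defensin gene Defa39, whose near-identical relatives its probe set may also read, was at 10.94 and 11 against 12.32 and 13.22. Pglyrp1, a peptidoglycan-binding protein, differed by -1.29 ± 0.17 and the phospholipase Pla2g2f by -2.75 ± 0.43. In the list, 5 passed without irradiated replicate 1, 2 without irradiated replicate 2, 3 without doxorubicin replicate 1 and 2 without doxorubicin replicate 2; quantile normalization gave 8.

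Other secretory lists had medians below 0 with few calls, where 1.95% of all genes were lower. Of 12 secretory transcription factors 2 were lower, Foxa1 and Bhlha15, with a median of -0.67. Foxa1 was at 9.46 and 9.35 after doxorubicin, 10.58 and 10.68 after irradiation and 10.61 and 10.97 untreated. Bhlha15, the gene of the Mist1 reporter, was at 8.15 and 7.83 after doxorubicin against 8.86 and 9.41, a difference of -1.15 ± 0.26 (limma, adjusted p = 0.0267). Another probe set of Bhlha15 gave -0.39 with an adjusted p of 0.604 in limma over all kept probe sets. Of 24 enteroendocrine genes 3 were lower, and each encodes a peptide hormone or its precursor: Tac1 (-2.43 ± 0.39), Nts (-2.02 ± 0.47) and Sct (-1.38 ± 0.25). Tac1, the precursor of substance P, read 9.68 and 9.06 after doxorubicin, 11.16 and 12.43 after irradiation and 10.08 and 10.30 untreated. Tac1 was therefore highest on the irradiated arrays, while Nts, neurotensin, was lowest on the doxorubicin arrays, at 7.63 and 7.71 against 9.59 and 9.78 and an untreated 10.42 and 10.18. Of 20 goblet genes 1 was lower, Spink4 (-1.33 ± 0.25), and Muc2, the main mucin, read 14.53 and 14.73 against 14.75 and 14.32. Enteroendocrine calls fell to 1 without irradiated replicate 1, irradiated replicate 2 or doxorubicin replicate 1 and to 0 without doxorubicin replicate 2; calls of the transcription factors fell to 1 without the same 3 arrays and to 0 without doxorubicin replicate 2. Without replicate 2 of CD24hi NICD, which stood apart, 4 of the 12 factors passed.

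**Figure D4:**
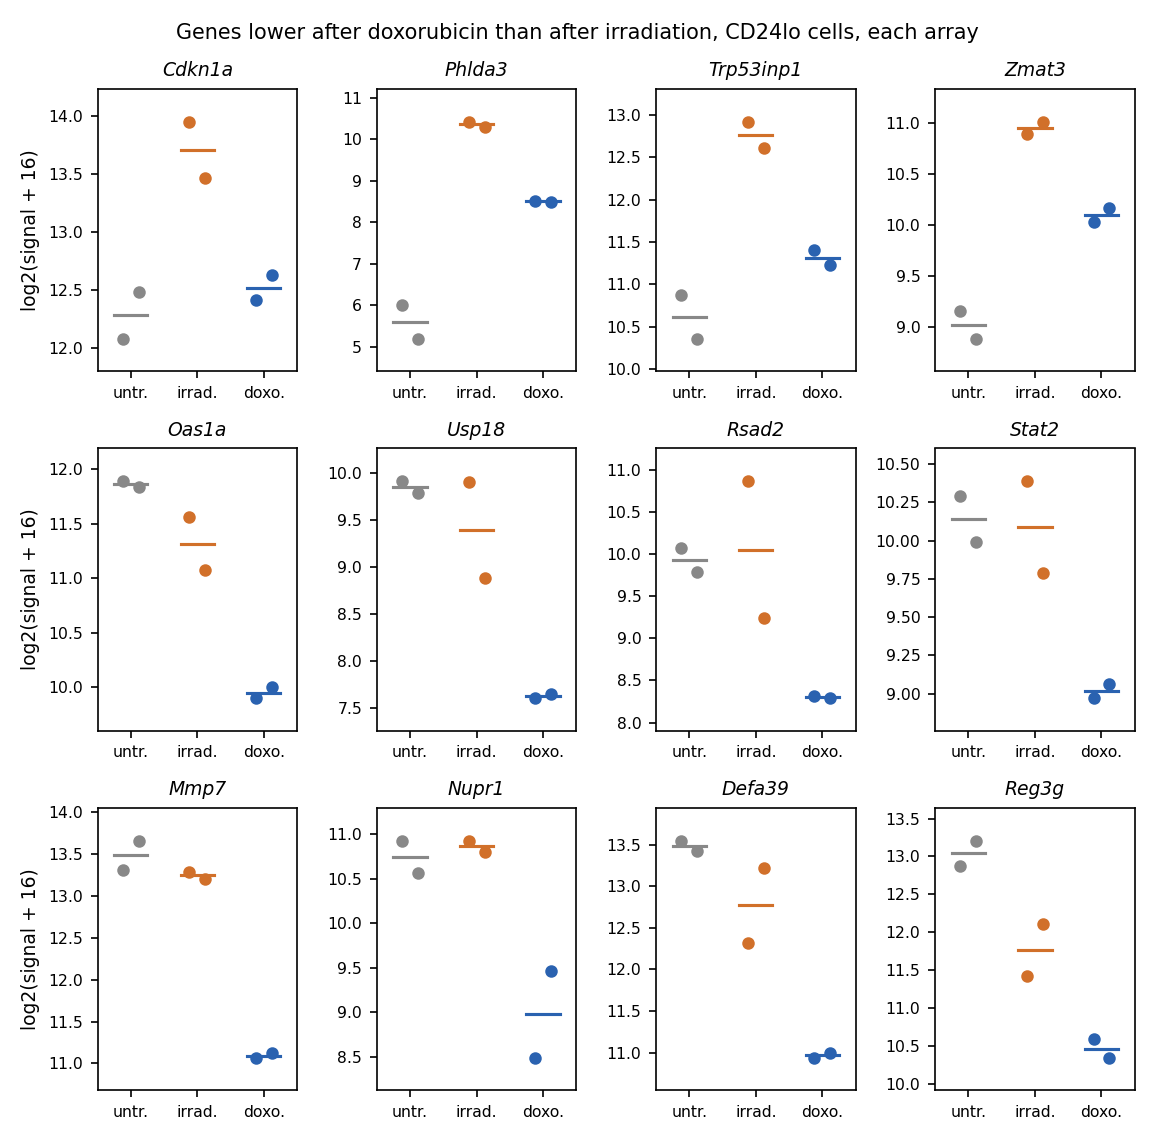
Levels on the log2(signal + 16) scale of 12 genes that passed as lower after doxorubicin than after irradiation in CD24lo cells: p53 targets in the top row, type I interferon genes in the middle row, and antimicrobial and stress genes in the bottom row. Points are single arrays and lines are means of 2; axes differ between panels and do not start at 0. Phlda3 lies at 8.52 and 8.50 after doxorubicin, between untreated and irradiated, and Mmp7 at 11.07 and 11.12, below both.

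Among further genes that were lower after doxorubicin, some were highest on the irradiated arrays and some lowest on the doxorubicin arrays. Ltf, the iron-binding antimicrobial lactoferrin, was at 6.20 and 6.29 after doxorubicin, 8.89 and 8.46 after irradiation and 4.70 and 6.57 untreated, so irradiated arrays stood above both other groups. Vim, the intermediate filament of mesenchymal cells, read 8.86 and 8.71 against 10.22 and 11.26, with 9.41 and 8.99 untreated. Of 13 stromal and muscle markers, Vim among them, 11 were below the array median on all 4 arrays. The summed signal of the 13, with Vim counted in it, was 1707 and 1626 after doxorubicin and 2826 and 3633 after irradiation. Tagln, the other marker not below the median throughout, overlapped between the treatments, at 9.56 and 9.82 against 10.19 and 9.42. The part of such cells in the value of Vim was not tested. Wnt5a, a noncanonical Wnt ligand, differed by -1.97 ± 0.48 and Mtnr1a, a melatonin receptor, by -2.21 ± 0.48. St3gal3, a sialyltransferase, at -2.10 ± 0.53 and Ift81, a cilium transport gene, at -1.89 ± 0.34 had untreated levels near the irradiated ones.

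Stress lists held few calls, where 1.95% of all genes were lower and 1.32% higher. Of 20 immediate early genes 3 were lower after doxorubicin, Ier2 (-0.93 ± 0.21), Atf3 (-0.83 ± 0.21) and Btg2, which is also a p53 target, with a median of -0.31. Of 22 genes of the unfolded protein response 2 were lower, Atf3 again and Asns (-0.68 ± 0.18), an asparagine synthetase, with a median of -0.38. Of 22 DNA repair genes 0 passed in limma, 3 had an unadjusted p under 0.05 (20.4% of all genes) and the median was -0.25. Of 13 topoisomerases and genes of doxorubicin handling 0 passed, 4 had an unadjusted p under 0.05 and the median was 0.13. Abcb1b, a drug efflux pump of that list, read 6.04 and 6.02 after doxorubicin, 7.01 and 7.89 after irradiation and 4.69 and 4.86 untreated, with a direct adjusted p of 0.126 in limma. Cish and Socs2, feedback inhibitors of cytokine receptors singled out after their values were seen, were higher after doxorubicin by 1.66 ± 0.27 and 0.83 ± 0.17. Without any 1 of the 4 arrays, 0 of the immediate early and unfolded protein genes passed, and without the variance trend 1 and 0 did.

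The lists of mitosis and of DNA replication together gave 1 call between the treatments in CD24lo cells, where 3.27% of all genes were called. Of 24 mitotic genes 0 passed in limma and 1 had an unadjusted p under 0.05 (median 0.15), and of 24 genes of DNA replication 1 was lower (median -0.39): Cdc6, a licensing factor, at 6.65 and 6.27 after doxorubicin, 8.27 and 7.88 after irradiation and 7.52 and 8.72 untreated. Mki67, a marker of cycling cells, was at 10.65 and 11.06 after doxorubicin, 10.51 and 9.81 after irradiation and 11.81 and 11.87 untreated. Top2a, a topoisomerase that doxorubicin traps, was at 9.90 and 9.89 against 10.12 and 9.61 and an untreated 11.40 and 11.45. Both treatments thus lay below untreated for Mki67 and Top2a. Against untreated, 20 of 24 mitotic genes were lower after irradiation and 17 after doxorubicin, and 8 and 20 of 24 replication genes (backgrounds 2.45% and 9.27% lower). Of 17 stem cell genes 1 was lower in the direct comparison, the ion cotransporter Slc12a2 (-0.78 ± 0.18). Lgr5, the stem cell receptor, read 6.16 and 4.96 after doxorubicin and 5.19 and 7.45 after irradiation, and the groups overlapped; its untreated arrays were at 8.90 and 8.44. Olfm4, a secreted stem cell marker, was at 10.33 and 9.96 against 9.17 and 10.07, far below 13.43 and 13.22 untreated. Ccnd1, a G1 cyclin and Wnt target, was 1.07 lower (-1.07 ± 0.18, limma, adjusted p = 0.00540). Cdc6 and Slc12a2 lost their calls without any 1 of the 4 arrays.

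In 22 of 24 mitotic genes and 15 of 24 replication genes, doxorubicin arrays were higher than irradiated ones in CD24hi cells (background 4.56% called, 3.71% higher and 0.844% lower), and the test of the difference between fractions passed for 13 of the 24 mitotic and 9 of the 24 replication genes. Mki67 in CD24hi cells was at 12.01 and 11.95 after doxorubicin and at 9.06 and 10.17 after irradiation, while its test of the difference between fractions gave an adjusted p of 0.0962 in limma. Top2a differed by 0.03 in CD24lo and by 1.91 in CD24hi cells, -1.89 apart (limma, adjusted p = 0.0287). Over all genes the difference between fractions passed for 118 (0.996%), 10 higher and 108 lower in CD24lo than in CD24hi cells. Stil, a centriole protein, had the smallest p, at 7.32 and 7.37 after doxorubicin and 7.99 and 7.81 after irradiation in CD24lo cells, and at 8.97 and 8.80 against 6.40 and 6.70 in CD24hi cells. Esco2, a cohesin acetyltransferase, differed likewise, -2.89 between fractions. The count of 118 fell to 21 without irradiated CD24lo replicate 1, 77 without irradiated CD24lo replicate 2, 21 and 24 without replicates 1 and 2 of doxorubicin CD24lo cells, 7 without irradiated CD24hi replicate 1, 7 without the first and 9 without the second doxorubicin array of CD24hi cells, and rose to 191 without irradiated CD24hi replicate 2.

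By sign, most of the direct difference had the same direction in both fractions, but fewer genes passed in both. Of the 157 genes higher in CD24lo cells 147 had a difference above 0 in CD24hi cells, and 53 passed as higher there. Of the 231 lower genes 218 had a difference below 0 in CD24hi cells, and 25 passed as lower there. Only 1 gene passed in opposite directions, and 49.7% of all genes were above 0 in CD24hi cells. The difference between fractions passed for 11 of the 388. Among these Mmp7 and Defa39 were lower after doxorubicin in CD24lo cells and at -0.17 in CD24hi cells, where Mmp7 read 14.23 and 14.04 against 14.32 and 14.29. Cd14, a receptor for bacterial lipopolysaccharide, was at 4.75 and 4.66 after doxorubicin and 7.06 and 7.29 after irradiation in CD24lo cells, and at 6.76 and 6.96 against 6.08 and 6.61 in CD24hi cells. Its difference between fractions was -2.98 (limma, adjusted p = 0.00765). For class II the test of the difference between fractions passed for 0 of 6 in limma (2 at an unadjusted p under 0.05), with 5 of 6 higher after doxorubicin in CD24hi cells and a median of 1.99. For enterocyte digestion it passed for 0 of 16 (3 unadjusted), with 5 higher in CD24hi cells. For the p53 lists it passed for 1 of 18, Gtse1, and for 0 of 15 (2 unadjusted). In CD24hi cells 0 of these 18 and 0 of these 15 were lower after doxorubicin, 1 of the 15 was higher, and the medians were -0.08 and -0.1. Type I interferon genes had 1 of 21 lower there with a median of -0.37, and Paneth genes 2 of 16 with -0.24 (background 0.844% lower).

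**Figure D5:**
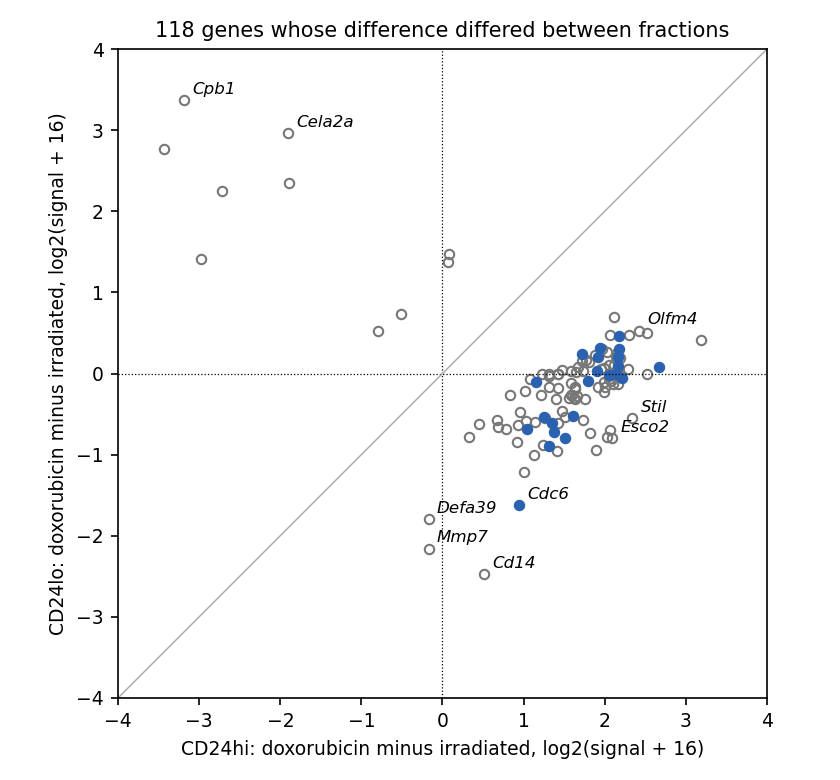
The 118 genes whose doxorubicin minus irradiated difference differed between fractions, with the CD24hi difference on the horizontal axis and the CD24lo difference on the vertical axis, both on the log2(signal + 16) scale. Filled points are the 22 members of the mitosis and replication lists and the grey diagonal marks equal differences. Most points lie to the right near 0 on the vertical axis, with Cpb1 and Cela2a at the upper left and Mmp7, Defa39 and Cd14 at the lower middle.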

How the data were processed

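RNA of sorted cells was amplified with the GeneChip Pico kit and hybridised to Affymetrix mouse arrays, per the labels' protocols. The authors deposited linear signal intensity per probe set, which the submitters' processing notes credit to MAS5 without a version, and scaled so that the trimmed mean is 500 on every array. No detection calls were used here. Only the 34958 probe sets with 1 gene symbol entered, not the 932 with several or the 9211 without one. Kept probe sets lay above the array median in at least 2 of 20 arrays, and each gene was read by its kept probe set of highest mean, giving 11853 genes. Values were log2(signal + 16). Comparisons used limma 3.58.1 (R 4.3.3), fitting 10 group means, 10 residual degrees of freedom, a variance trend, two-sided tests and Benjamini-Hochberg adjustment. Residuals of arrays sharing a replicate number did not correlate in 1 direction (11 of 45 pairs above 0.1), so no block was used.

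Named genes were 16 fixed ones (Bax was not among the genes tested), the 15 higher and 15 lower genes of largest difference that passed without overlap, and up to 4 members of each list. Others were named after their values were seen: Defa39, Pglyrp1, Mdm4, Hells, Cish, Socs2, Stil, Esco2, Gtse1, Cfi, Csf1r, Fcer1g, Adgre1, Itgax, C1qa, C1qb, C1qc, Cd3d, Cd4, Cd79a, Cd79b, H2-Ab1, Ciita, Klrd1, Oas1a, Stat2, Rtp4, Oasl1, Tagln and Lct. Lists and members were chosen with earlier results of these data known. The procedure was tested on simulated data. Alternatives covered pseudocount, scaling, filter, probe sets, variance moderation, block, single arrays and a fit to the groups alone. Chosen after seeing the data was a fit without replicate 2 of CD24hi NICD, whose 3' to 5' actin ratio of 1.03 lay below the 1.30 to 1.58 of the other arrays.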

Additional observations from a re-analysis of the deposited data

Results flagged for a closer look

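The difference between doxorubicin and irradiation was itself different in CD24lo and CD24hi cells for 118 genes, by limma's interaction test. Of the genes named in the text, 15 were among them, each with its CD24lo difference minus its CD24hi difference on the log2 scale. Above 0 were the pancreatic genes Cpb1 at 6.56 and Cela2a at 4.88. Below 0 and with a CD24hi difference above 0 were the cycle and replication genes Stil at -2.89, Esco2 at -2.89, Rad51ap1 at -2.77, Cdc6 at -2.56, Hells at -2.21, Top2a at -1.89, Gtse1 at -1.78 and Cenpf at -1.71, the stem cell genes Olfm4 at -1.91 and Slc12a2 at -1.11, and Cd14 at -2.98. Mmp7 at -1.98 and Defa39 at -1.63 were lower after doxorubicin in CD24lo cells and near 0 in CD24hi cells. Adjusted p ran from 0.00248 for Stil to 0.0485 for Defa39 in limma. The causes of these differences were not tested.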

How the results depend on the processing

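The direct comparison's 388 calls ran from 36 to 83 when 1 array of the 4 was left out and came to 1707 in a fit to the 4 arrays alone. The difference between fractions, 118, ran from 7 to 191 with 1 array left out, and gave 74 with no filter, 74 without the variance trend and 260 in a fit to its groups alone. Irradiation against untreated ran from 112 to 322 with 1 array left out and gave 221 in a fit to its groups alone, against 477. Doxorubicin against untreated ran from 394 to 1440 with 1 array left out, against 1747. With 1 array left out, 7 named genes that were short of the threshold changed sign: Lgr5 ran from -1.88 to 0.37, Muc2 from -0.12 to 0.31, Top2a from -0.23 to 0.28, Dclk1 from -0.13 to 0.51, Hes1 from -0.48 to 0.11, Alas2 from -0.81 to 0.21 and Cd79a from -0.62 to 0.84 (-0.56 without doxorubicin replicate 1). Under quantile normalization Muc2 was at -0.21. With the replicate number as a block, 377, 92, 454 and 1641 genes passed in the same order of comparisons. Without replicate 2 of CD24hi NICD the direct count was 543. The causes were not tested. With 2 arrays a group, weak probe sets near background limit every fold.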
